A study of Homo sapiens with 16 samples.

Results

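Ribosome-protected fragments of the human breast cancer line MDA-MB-231, which lacks hormone receptors and HER2 amplification, were sequenced in 8 libraries and compared by the target of CRISPR interference (CRISPRi). In this method a guide RNA leads a transcriptional repressor to a chosen gene. They are 8 of the 16 libraries of the series. In 4 of them the guide targeted tRNA-Ile-GAU (Ile GAT in the titles), and in 4 it targeted eGFP, the control. Within each set of 4, 2 libraries came from cells with a control construct and 2 from cells with a construct that overexpresses tRNA-Ile-UAU, so both guides were measured with both constructs and the construct entered the model as an additive term. Cells of every library carried CRISPRi, controls included, and no treatment is recorded. The labels describe the source as a xenograft cell line and the cells as grown in dishes with serum. They do not say whether the libraries of a group came from separate cultures, so p-values here reflect the variation among these libraries alone, part of which may be technical. The guide and the population of cells that received it coincide in this design and cannot be told apart.

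Isoleucine is read by isoacceptor tRNAs with different anticodons. tRNA-Ile-UAU reads the rare codon AUA, while tRNA-Ile-GAU pairs with the common isoleucine codons, and aminoacyl-tRNA synthetases charge each tRNA with its amino acid. A translating ribosome shields a short stretch of mRNA from nuclease, and the number of such footprints on a gene follows both how much mRNA there is and how densely ribosomes load it. MDA-MB-231 is known as a mesenchymal, invasive line with active YAP, a transcriptional coactivator of the Hippo pathway, and abundant matrix and protease secretion. The series was designed, by its own text, to examine ribosome occupancy of isoleucine-codon-rich mRNAs while these tRNAs were shifted. Codon content and the level of tRNA-Ile-GAU were not analysed here, so the guide labels were not checked against their target.

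Depth differed between the guides. Counts on genes ran from 358340 to 607919 in the eGFP libraries and from 639320 to 938909 in the tRNA-Ile-GAU libraries, with no overlap. With every library thinned to the shallowest, 96 genes were called in place of 206, and 86 of them were among the 206. The shallowest library, replicate 1 of the eGFP guide with the tRNA-Ile-UAU construct, also stood apart on the first principal component, and without it 152 genes were called. With either guide 14 of 15 mesenchymal markers of the line had counts and TWIST1 was at 0. Their summed level, in which VIM (median 12940 CPM) was the largest part, was 22500 to 24100 CPM (a gene's counts scaled to a fixed library total) with the eGFP guide and 22380 to 23810 CPM with the tRNA-Ile-GAU guide. Of 18 luminal and epithelial markers, 12 had counts with the eGFP guide and 13 with the tRNA-Ile-GAU guide, summing to 1301 to 1499 and 1353 to 1466 CPM. The keratins KRT19, KRT18 and KRT8 were the highest of them, with medians of 551, 316 and 212 CPM, and ESR1, TFF1 and TFF3 were at 0. Of 12 fibroblast markers 5 had counts with either guide, summing to 29.7 to 47.4 and 34.1 to 48.5 CPM, with DCN, POSTN, FAP and THY1 at 0. Of 11 endothelial markers 7 and 9 had counts, summing to 125 to 190 and 182 to 238 CPM, most of it from ESAM (median 149 CPM), with CDH5 and FLT1 at 0. Of 12 immune markers 6 and 5 had counts, summing to 132 to 187 and 141 to 183 CPM, most of it from CD68 (median 152 CPM), with CD3E and ITGAM at 0. The part of these markers in the results was not tested.

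Of 8143 genes tested, 206 (2.53%) passed an adjusted p of 0.05 in edgeR's quasi-likelihood test with Benjamini-Hochberg adjustment over all of them. 51 genes (0.626%) rose with the tRNA-Ile-GAU guide and 155 (1.90%) fell. Of the fallen genes, 85 lie on chromosome 7 and 70 elsewhere, while none of the risen genes lies there. Most changes were modest: 33 of the risen and 82 of the fallen genes moved less than 1.5-fold, and 5 and 15 moved more than 2-fold. The 4 libraries of one guide did not overlap the 4 of the other in 36 of the risen and 126 of the fallen genes. Over all genes tested the share was 7.23% (2.94% higher and 4.30% lower). Called genes were selected on these same libraries, so their larger share follows from the selection and is not separate support, here or below. Leaving out 1 library gave 131 to 193 calls, the fewest without replicate 2 of the eGFP guide with the control construct (131) or with the tRNA-Ile-UAU construct (137). DESeq2 called 82 genes, all of them among the 206. At the edge of the threshold, CADPS2 at an adjusted p of 0.04997 was the last gene called and CASP2 at 0.0503 the first left out. Genes named below for the size of their change were chosen among called genes whose 2 guides do not overlap, so their lack of overlap is not a finding. Levels below are in CPM after scaling by the trimmed mean of M-values, fold changes are log2 values with standard errors, and the 4 values of a guide come in the order control construct replicates 1 and 2, then tRNA-Ile-UAU construct replicates 1 and 2.

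CDH11, the mesenchymal cadherin also called OB-cadherin (chr16:64943753-65123744, GRCh38), rose the most. Its footprints stood at 20.2, 20.3, 22.9 and 21.0 CPM with the eGFP guide and at 106, 86.9, 73.9 and 71.9 CPM with the tRNA-Ile-GAU guide. Every tRNA-Ile-GAU library was far above every eGFP library, and the log2 fold change was 2.03 ± 0.21 (edgeR adjusted p = 1.03e-12). PTK7, a pseudokinase receptor of the planar cell polarity branch of Wnt signalling (chr6:43076314-43161715), went from 35.4, 35.6, 37.2 and 33.2 CPM to 95.2, 84.4, 106 and 87.9 CPM. The eGFP values lay within a few CPM of each other, and the change was 1.41 ± 0.18 (edgeR adjusted p = 6.08e-09). ZNF10 (chr12:133130627-133159465), a zinc finger protein with a KRAB repressor domain, was at 185, 161, 243 and 217 CPM against 514, 489, 416 and 636 CPM, a log2 change of 1.36 ± 0.11 (edgeR adjusted p = 2.74e-18). The KRAB domain of ZNF10 is the one built into many CRISPRi repressors. The repressor used here is not given in the sources used here, and counts per gene do not separate the cell's own ZNF10 mRNA from a construct that carries part of it.

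The other risen genes named by size were smaller steps. TXNIP, the thioredoxin-binding arrestin that restrains glucose uptake, had 129.7, 125, 131 and 135 CPM with the eGFP guide and 224, 236, 177 and 243 CPM with the tRNA-Ile-GAU guide, a change of 0.75 ± 0.12. The eGFP libraries were tight around 130.3 CPM. AKAP12, a scaffold that anchors protein kinase A, rose by 0.77 ± 0.19, BCORL1, a corepressor of the Polycomb family, by 0.76 ± 0.21, and EHF, an epithelial ETS factor, by 0.74 ± 0.18. TUBB6, a beta-tubulin, went from a mean of 136 ± 14.4 to 215 ± 26.2 CPM (SD, n = 4 each) and rose by 0.64 ± 0.12. RASD1, a dexamethasone-induced Ras protein, rose by 0.66 ± 0.17, as 1.12 ± 0.23 with the control construct and 0.19 ± 0.23 with the tRNA-Ile-UAU construct. Its difference between constructs did not pass the interaction test (edgeR adjusted p = 0.665). APBB1IP, the adaptor RIAM of integrin activation, rose by 0.60 ± 0.15. NUDCD1 rose by 0.54 ± 0.12, from 122 to 180.1 CPM. KRT81, a hair keratin expressed in breast cancer lines, went from 448, 468, 697 and 494 CPM to 799, 759.9, 739 and 770.2 CPM, and its 0.57 ± 0.09 is uncertain where reads are shared with the near-identical KRT86. IFITM2, an interferon-induced membrane protein with close copies in IFITM1 and IFITM3, was low, at 13.5, 11.9, 20.0 and 3.49 CPM against 32.5, 20.8, 24.6 and 28.8 CPM, and rose by 1.21 ± 0.33. The calls of TXNIP, TUBB6 and KRT81 held with any 1 library left out, and those of AKAP12, BCORL1, EHF, RASD1, APBB1IP, NUDCD1 and IFITM2 were lost in at least 1 such fit.

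S100A4, a small calcium-binding protein linked to metastasis, was the fallen gene with the lowest p. Footprints were at 807, 834, 912 and 744 CPM with the eGFP guide and at 375, 312, 256 and 248 CPM with the tRNA-Ile-GAU guide (chr1:153543621-153545806). The groups were far apart, and the log2 change was -1.46 ± 0.09 (edgeR adjusted p = 4.33e-24). ITGB4, the integrin beta chain of hemidesmosomes (chr17:75721459-75757818), stood at 643, 636, 757 and 711 CPM against 411, 312, 349 and 376 CPM, a change of -0.92 ± 0.09 (edgeR adjusted p = 1.30e-13). GPRC5C, an orphan receptor (chr17:74432088-74451658), went from 97.7, 100.0, 94.3 and 87.3 CPM to 36.1, 31.8, 34.3 and 27.2 CPM, a change of -1.53 ± 0.17 (edgeR adjusted p = 1.21e-10).

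The other fallen genes named by size outside chromosome 7 began from means of 21.1 to 124 CPM. VSTM2L, at 20.2, 22.0, 22.9 and 19.2 CPM with the eGFP guide against 3.61, 7.34, 5.35 and 3.20 CPM with the tRNA-Ile-GAU guide, fell with a log2 change of -2.02 ± 0.42. TNS4, a tensin of focal adhesions, fell with -1.13 ± 0.23. Its eGFP libraries varied, at 35.4, 39.0, 80.0 and 52.4 CPM, and its tRNA-Ile-GAU libraries lay close together at 21.7, 20.8, 23.6 and 24.0 CPM. GLB1L2, at -1.19, CRIP2, a LIM-domain protein, at -1.02, and CHST14, the dermatan sulfotransferase, at -0.83, also fell. COLGALT2, which adds galactose to collagen hydroxylysine, fell from 124 to 68.5 CPM (-0.86 ± 0.15). With 1 library left out at a time, VSTM2L, TNS4 and COLGALT2 kept their calls, and GLB1L2, CRIP2 and CHST14 lost theirs in at least 1 fit. TNS4 did not pass in thinned libraries (-0.83, edgeR adjusted p = 0.140).

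**Figure D1:**
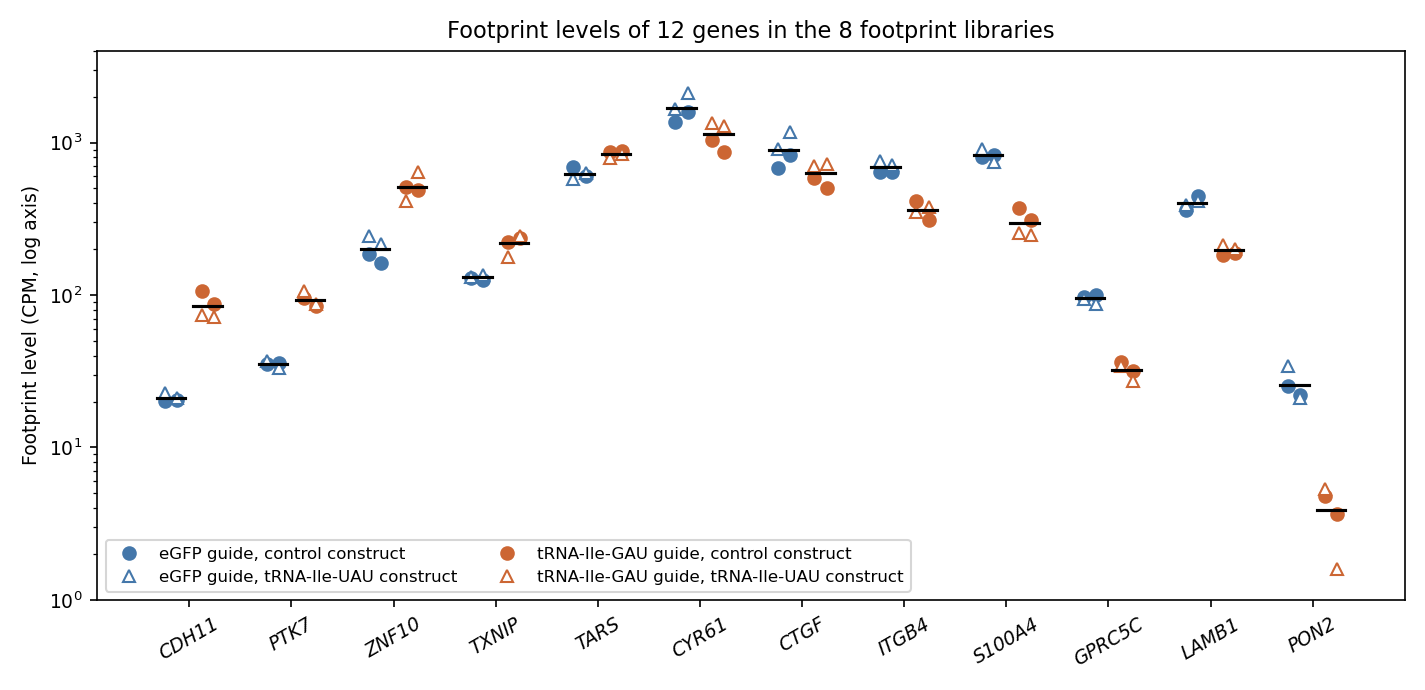
Footprint levels of 12 genes in CPM on a log axis, one point per library; blue is the eGFP guide and orange the tRNA-Ile-GAU guide, filled circles the control construct and open triangles the tRNA-Ile-UAU construct, and the black bars are the means over 4 libraries. CDH11, PTK7, ZNF10, TXNIP and TARS were higher in all 4 tRNA-Ile-GAU libraries, and of the 7 lower genes CTGF had overlapping groups.

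Laminins are the cross-shaped trimers of basement membrane, and chains of the list moved both ways. Of 19 tested laminins and matrix glycoproteins 2 rose and 3 fell, against 0.626% risen and 1.90% fallen of all genes tested. The median log2 change of the list was -0.04 against 0.01 over all genes tested. LAMB1, a beta chain encoded on chromosome 7, had 360.4, 443, 389 and 411 CPM with the eGFP guide and 182, 189.7, 212 and 199.8 CPM with the tRNA-Ile-GAU guide, a change of -1.04 ± 0.10 (edgeR adjusted p = 9.06e-14). Its level was near 196 CPM in every tRNA-Ile-GAU library. LAMB3, the beta chain of laminin-332, which is the ligand of the ITGB4 integrin, rose by 0.49 ± 0.09, from 513 ± 19.8 to 719.6 ± 45.9 CPM (SD, n = 4). LAMB2, another beta chain, stood at 249, 288, 320.1 and 293 CPM against 418, 378, 383 and 361 CPM and rose by 0.44 ± 0.10. LAMA5, the alpha chain that pairs with LAMB1 or LAMB2, was at 573, 614, 620.2 and 608 CPM against 436, 363, 440.0 and 404 CPM and fell with -0.55 ± 0.09. AGRN, the heparan sulfate proteoglycan agrin, fell with -0.35 ± 0.10. In all 5 of these genes the libraries of the 2 guides did not overlap, as in 7.23% of all genes tested. The 5 are the called members, so this follows largely from their selection. LAMB2 did not pass without replicate 1 of the eGFP guide with the control construct (edgeR adjusted p = 0.0554) and AGRN in 7 of the 8 fits with 1 library left out, while the other 3 passed in all 8.

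Collagens and the enzymes that crosslink them also moved in both directions, 2 up and 3 down of 21 tested (median -0.01). The shares over all genes tested were 0.626% up and 1.90% down. The lysyl hydroxylases, which prepare collagen for crosslinking, were opposite. PLOD2 rose by 0.53 ± 0.12, with 173, 141, 149 and 179.9 CPM against 298, 242, 201 and 189 CPM. PLOD3, on chromosome 7, fell with -0.66 ± 0.10, with 340.1, 366, 323 and 363 CPM against 212, 212, 229 and 233 CPM. Neither gene had overlapping groups, and the highest PLOD2 values came from the control construct. PLOD2 changed by 0.78 ± 0.15 with that construct and 0.23 ± 0.17 with the tRNA-Ile-UAU construct. The difference did not pass the interaction test (edgeR adjusted p = 0.765). The transmembrane collagen COL13A1 fell with -0.48 ± 0.10 and the basement membrane collagen COL18A1 with -0.36 ± 0.10. TGM2, the tissue transglutaminase, rose by 0.37 ± 0.09 in the additive model with overlapping groups, and its values by construct are given below. PLOD3 and COL13A1 passed whichever library was left out, which PLOD2, COL18A1 and TGM2 did not.

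Of 25 tested YAP targets, 5 fell and none rose (median -0.07), against 1.90% fallen and 0.626% risen of all genes tested. CYR61, a matricellular protein also called CCN1, had 1369, 1597, 1664 and 2124 CPM with the eGFP guide and 1033, 861, 1349 and 1278 CPM with the tRNA-Ile-GAU guide. It fell with -0.59 ± 0.08 (edgeR adjusted p = 6.79e-08), although its highest tRNA-Ile-GAU library lay just under its lowest eGFP library. CTGF, its relative CCN2, stood at 682, 826, 903 and 1177 CPM against 587, 503, 707 and 724 CPM, with overlapping groups and a change of -0.51 ± 0.09 (edgeR adjusted p = 1.41e-05). Both genes were higher with the tRNA-Ile-UAU construct within each guide. ANKRD1, a nuclear ankyrin-repeat protein, was at 672, 578, 575 and 1069 CPM against 493, 504, 473 and 499 CPM (-0.56 ± 0.10). A single eGFP library, replicate 2 with the tRNA-Ile-UAU construct, was far above the other eGFP values. IGFBP3, which is on chromosome 7, had -0.58 ± 0.17 and NT5E, the ecto-nucleotidase CD73, -0.28 ± 0.08, both with overlapping groups. Without the high library ANKRD1 stood at -0.30 and did not pass (edgeR adjusted p = 0.116), and IGFBP3 and NT5E did not in 6 and 5 of the 8 fits with 1 library left out, while CYR61 and CTGF passed in all of them. The remaining 20 members did not pass the test.

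TEAD factors carry YAP to DNA at the letters GGAATG, and the stretches upstream of ANKRD1 and CTGF are printed because they hold that motif. Windows were searched for 4 of the 5 fallen YAP targets, and CYR61 was not among them. Each run is the 250 bases before the gene start from RefSeq, GRCh38.p14, on the minus strand, written 5′ to 3′, with capitals marking GGAATG or its reverse complement. The ANKRD1 stretch is chr10:90921088-90921337 and the CTGF stretch chr6:131951373-131951622.
ANKRD1: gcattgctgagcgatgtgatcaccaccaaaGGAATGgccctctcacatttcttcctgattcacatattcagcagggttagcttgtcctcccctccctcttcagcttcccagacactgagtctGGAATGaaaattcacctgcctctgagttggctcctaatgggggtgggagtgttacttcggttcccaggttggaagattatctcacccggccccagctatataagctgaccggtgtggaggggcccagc
CTGF: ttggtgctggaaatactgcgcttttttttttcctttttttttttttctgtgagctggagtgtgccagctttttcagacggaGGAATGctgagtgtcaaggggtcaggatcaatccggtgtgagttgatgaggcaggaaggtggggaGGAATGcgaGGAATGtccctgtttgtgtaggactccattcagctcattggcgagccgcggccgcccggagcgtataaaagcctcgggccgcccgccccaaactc
ANKRD1 held 2 matches, which began 220 and 128 bases before the gene start, and CTGF held 3, at 169, 104 and 95 bases. A window of 300 bases, 250 before to 50 after the start, was found by symbol for 6829 tested genes. On either strand, GGAATG was in 707 of these windows (10.4%), in 5 of 41 windows of risen genes (12.2%), in 10 of 48 of fallen genes outside chromosome 7 (20.8%) and in 6 of 69 of fallen genes on chromosome 7 (8.70%). Among the tested YAP targets 6 of 16 windows held it, and the windows of the fallen members IGFBP3 and NT5E did not. The AP-1 letters TGANTCA, searched the same way, were in 4.17% of all windows and in 4 of 48 of fallen genes outside chromosome 7 (8.33%). They were in 1 of 41 windows of risen genes (2.44%) and 3 of 69 of fallen genes on chromosome 7 (4.35%). The GC box letters GGGCGG were in 72.7% of all windows and 72.9% of those of fallen genes outside chromosome 7. For the ATF4 letters TGATGNAAT these shares were 0.483% and 0%. These are descriptions of letters and not of binding.

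Proteases and their inhibitors gave 2 genes up and 1 down of 14 tested in the urokinase and metalloproteinase list (median 0.06). Over all genes tested 0.626% rose and 1.90% fell. PLAT, the tissue plasminogen activator, went from 333, 368, 369 and 341 CPM to 653, 499, 376 and 422 CPM and rose by 0.47 ± 0.10. Every tRNA-Ile-GAU library was above every eGFP library, narrowly at 376 against 369 CPM. The change was 0.72 ± 0.13 with the control construct and 0.17 ± 0.14 with the tRNA-Ile-UAU construct. This difference did not pass the interaction test (edgeR adjusted p = 0.665). TIMP3, a matrix-bound metalloproteinase inhibitor, rose by 0.36 ± 0.08, from 968 ± 70.1 to 1238 ± 98.6 CPM, and ADAM15, a membrane disintegrin, fell with -0.48 ± 0.13. Of 9 cathepsins and cystatins tested (median -0.10), CTSC, the protease that activates granule serine proteases, rose by 0.50 ± 0.09, with 433, 392, 366 and 433 CPM against 578, 578, 622 and 518 CPM. CTSD, the lysosomal aspartyl protease, was far more abundant, at 4705, 4857, 5011 and 4853 CPM against 4139, 3752, 3819 and 3276 CPM, and fell with -0.37 ± 0.07. PLAT did not pass without replicate 1 of the tRNA-Ile-GAU guide with the control construct, its highest library (edgeR adjusted p = 0.0603), nor ADAM15 in 5 of the 8 fits with 1 library left out.

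Growth factor and adhesion lists each held few calls, beside 0.626% risen and 1.90% fallen of all genes tested. In the insulin-like growth factor list 3 of 10 tested genes fell and none rose (median -0.08), against 1.90% fallen of all genes tested and 22.7% of those on chromosome 7: the secreted binding proteins IGFBP1, with 116, 102, 71.5 and 87.3 CPM against 50.6, 39.2, 40.7 and 40.0 CPM, and IGFBP3, both on chromosome 7, and the receptor substrate IRS1 (-0.49 ± 0.15). Among 19 tested genes of a list of Wnt receptors and partners (median -0.20) PTK7 rose and 2 receptors fell. These were the Frizzled FZD1 on chromosome 7 (-0.62 ± 0.16) and the coreceptor LRP5 (-0.36 ± 0.10). Of 8 claudins and tight junction genes CLDN7 rose by 0.82 ± 0.20, from 31.6 to 56.3 CPM, and CLDN4, on chromosome 7, fell with a log2 change of -0.996, from 154 to 76.7 CPM. Among 11 cadherins and catenins CDH11 rose and the desmosomal DSG2 fell (-0.43 ± 0.13), ITGB4 was the 1 of 9 integrins that passed the test, and S100A4 was the 1 of 8 S100 proteins. Of 12 tested mesenchymal markers of the line, CAV1, the caveolae coat protein on chromosome 7, fell with -0.37 ± 0.08, and no other passed. With 1 library left out, IGFBP1, PTK7, CLDN4, CDH11, ITGB4, S100A4 and CAV1 passed in every fit, and IGFBP3, IRS1, FZD1, LRP5, CLDN7 and DSG2 failed in at least 1.

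**Figure D2:**
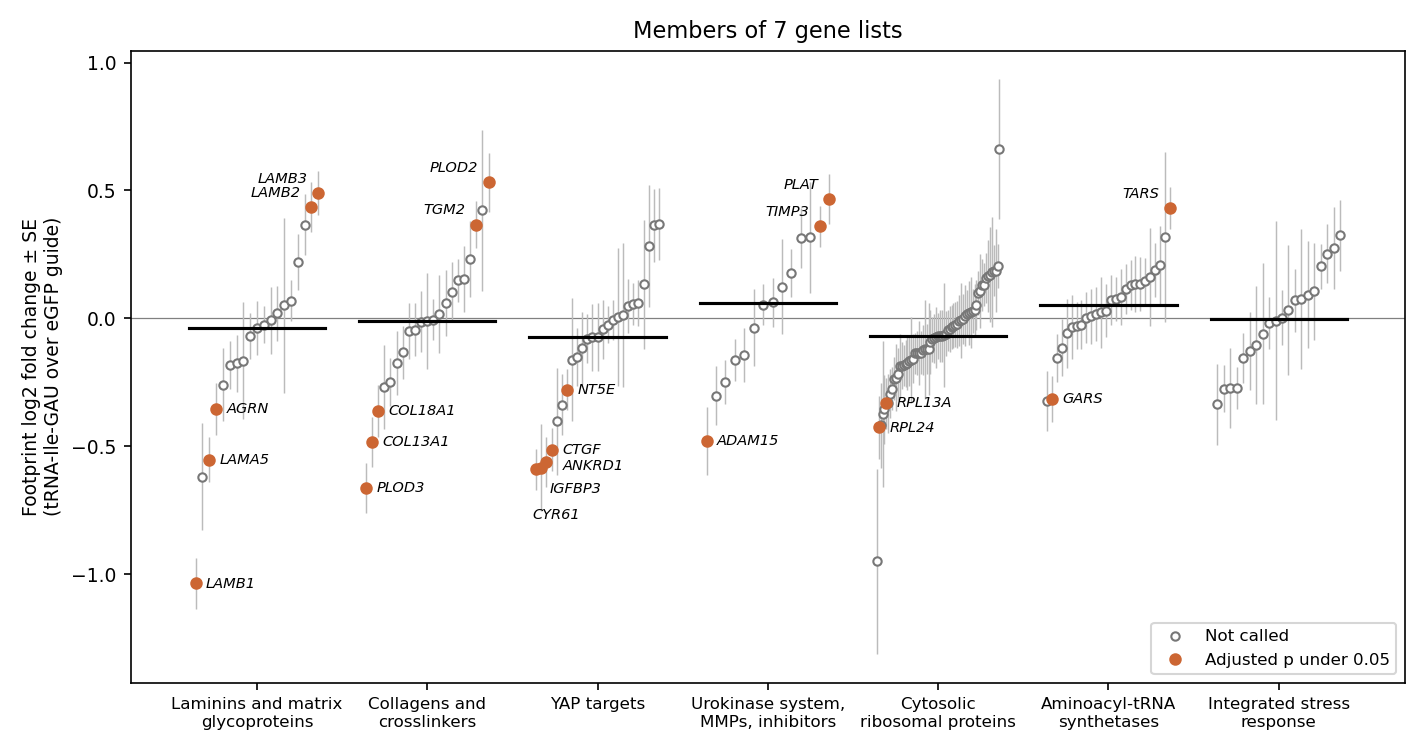
Footprint log2 fold changes with standard errors for the tested members of 7 gene lists; each point is a gene, filled orange where the edgeR adjusted p was under 0.05, and black bars are list medians. Laminins, collagens and proteases have called genes on both sides of 0, the 5 called YAP targets are all below it, and the integrated stress response list has no called gene.

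Calls among the genes that make and use tRNA stand beside 2.53% called of all genes tested. The cytosolic isoleucyl-tRNA synthetase IARS stood at 584, 551, 555 and 585 CPM with the eGFP guide and at 618, 546, 656 and 580.1 CPM with the tRNA-Ile-GAU guide. Those ranges overlapped, and the change of 0.08 ± 0.09 did not pass the test (edgeR adjusted p = 0.772). Its mitochondrial counterpart IARS2 had -0.11 ± 0.11. Of 26 synthetases and partners tested (median 0.05), the threonyl-tRNA synthetase TARS rose by 0.43 ± 0.08, with 690.4, 600.3, 577 and 634 CPM against 871, 879, 794 and 841 CPM. GARS, the glycyl-tRNA synthetase on chromosome 7, fell with -0.31 ± 0.09. TARS passed whichever library was left out, and GARS failed in 6 of those 8 fits. None of the 42 tested genes of tRNA transcription, processing and modification (median 0.02), of the 20 integrated stress response genes (median -0.0036) or of the 13 amino acid transporters (median 0.0035) passed. At 2.53% called of all genes tested, lists of these sizes cannot show fewer calls than elsewhere. The tRNA processing list did not hold POP7, an RNase P subunit on chromosome 7, which was called as fallen and is given under other observations. SLC3A2 and SLC7A5, the chains of the LAT1 carrier that brings in isoleucine, had -0.27 ± 0.08 and -0.28 ± 0.09, with edgeR adjusted p-values of 0.0503 and 0.0983. SLC3A2 lay at the threshold: it passed in 6 of 17 alternatives, with adjusted p-values from 0.0144 to 0.274 over the 17, and SLC7A5 passed in 1 of 17 (0.0392 to 0.436). Their 4 tRNA-Ile-GAU libraries lay below their 4 eGFP libraries, as in 4.30% of all genes tested. SLC3A2 went from 904, 955, 795 and 880.4 to 717, 699.9, 792 and 729 CPM. With the control construct both genes passed, SLC3A2 at -0.39 ± 0.11 and SLC7A5 at -0.44 ± 0.12 (edgeR adjusted p = 0.0464 and 0.0436). With the tRNA-Ile-UAU construct they stood at -0.14 ± 0.11 and -0.09 ± 0.13 and did not pass. Neither difference between constructs passed the interaction test (edgeR adjusted p = 0.975 and 0.855).

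Of 65 cytosolic ribosomal proteins, 2 fell and none rose (median -0.07), a share near the 1.90% fallen of all genes tested. RPL24, with -0.43 ± 0.12, and RPL13A, with -0.33 ± 0.10, are the 2, and both are uncertain because ribosomal proteins have many processed pseudogenes that can share reads. In total RNA the same list had a median of 0.39 and no gene called. For RPL24 and RPL13A the highest total RNA library was replicate 1 of the tRNA-Ile-GAU guide with the tRNA-Ile-UAU construct, at 251 and 562 CPM. The part of that library in the list median was not tested. In footprints the list median was -0.13 with the control construct and 0.05 with the tRNA-Ile-UAU construct. Among 41 translation factors EIF4A2, the initiation helicase, rose by 0.41 ± 0.12 with overlapping groups. The chaperone list (28 tested, median 0.11) had 1 gene up and 2 down, against 0.626% and 1.90% of all genes tested. The chaperonin subunit CCT4 rose (0.34 ± 0.08). The small heat shock protein HSPB1 on chromosome 7 (-0.65 ± 0.10) and the co-chaperone BAG3 (-0.38 ± 0.09) fell. Single calls came from other lists: PDIA4, an oxidoreductase of the endoplasmic reticulum (-0.39 ± 0.09), MCM7, a subunit of the replicative helicase (-0.40 ± 0.08), ANLN, the cytokinetic ring protein (-0.30 ± 0.08), and NDUFA5, a respiratory complex I subunit (-1.14 ± 0.30). These 4 genes are on chromosome 7. The linker histone H1F0 rose by 0.34 ± 0.10 with overlapping groups, as 0.57 ± 0.13 with the control construct and 0.08 ± 0.14 with the tRNA-Ile-UAU construct. Its difference between constructs did not pass the interaction test (edgeR adjusted p = 0.665). Without replicate 1 of the eGFP guide with the control construct H1F0 stood at 0.19 and did not pass. HIST2H2BE fell with -0.44 ± 0.11, the latter uncertain among near-identical histone genes. Of the genes in this paragraph, HSPB1 and PDIA4 passed whichever library was left out, and the other called genes failed in at least 1 such fit. Of the 40 lists 25 had at least 1 gene called and 15 had none, among them the proteasome, glycolysis, splicing and p53 lists.

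Chromosome 7 gave 85 fallen genes of 374 tested (22.7%), against 1.56% of genes called elsewhere in either direction. Of its tested genes 347 were lower and 27 higher with the tRNA-Ile-GAU guide, with a median of -0.39, while the medians of the other 22 chromosomes ran from -0.06 to 0.09. The median was -0.39 with the control construct and -0.39 with the tRNA-Ile-UAU construct. Along the chromosome, 8 windows of 20 Mb had medians between -0.42 and -0.33. In single libraries, the chromosome's median deviation from the mean of all libraries was 0.18 to 0.20 with the eGFP guide and -0.19 to -0.16 with the tRNA-Ile-GAU guide. PON2, a lactonase of the paraoxonase family (chr7:95404862-95435028), was its most changed gene, with 25.3, 22.0, 34.3 and 21.0 CPM against 4.82, 3.67, 5.35 and 1.60 CPM and a change of -2.56 ± 0.42. SLC12A9, a cation-chloride cotransporter relative (-1.07 ± 0.23), and EPDR1, an ependymin-related lysosomal protein (-0.95 ± 0.22), were also named by size. With 1 library left out, PON2, SLC12A9 and EPDR1 passed in every fit, while EPDR1 did not pass with DESeq2 (adjusted p = 0.0549) or in thinned libraries (edgeR adjusted p = 0.0758). Because the guide and the cells that carry it coincide, an effect of the tRNA and a difference in the number of copies of this chromosome cannot be told apart for genes on it. With its genes left out of the fit, 97 genes were called, 36 up and 61 down, all of them among the 206.

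**Figure D3:**
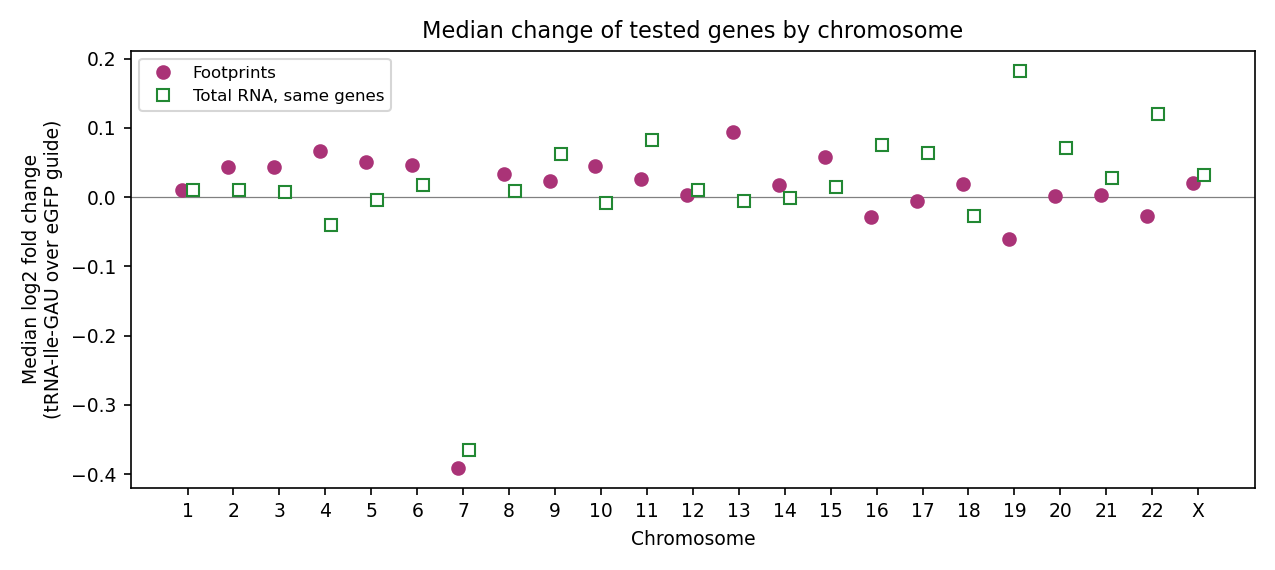
Median log2 fold change by guide of the tested genes on each chromosome, in footprints (filled circles) and, for the same genes, in total RNA (open squares). Chromosome 7 lies at -0.39 in footprints and -0.36 in total RNA, below all others in both.

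The guide effect was also taken within each construct, which uses 2 libraries against 2. With the control construct 90 genes were called (1.11%), 37 up (0.454%) and 53 down (0.651%), and with the tRNA-Ile-UAU construct 73 (0.896%), 16 up (0.196%) and 57 down (0.700%). Of the 51 genes that rose in the additive model, 50 were higher with both constructs and 6 were called with both, and all 155 that fell were lower with both, 18 of them called with both. Leaving out 1 of its libraries gave 30 and 18 calls with the control construct without eGFP replicate 1 or 2 and 32 and 46 without tRNA-Ile-GAU replicate 1 or 2, and 19 to 74 with the tRNA-Ile-UAU construct, where leaving out eGFP replicate 1 gave 28 and eGFP replicate 2 gave 19. These within-construct values are parts of the additive result and not a second test of it. S100A4 changed by -1.26 ± 0.12 with the control construct and -1.70 ± 0.13 with the tRNA-Ile-UAU construct, and CDH11 by 2.24 ± 0.28 and 1.74 ± 0.32. Neither difference between constructs passed the interaction test (edgeR adjusted p = 0.665 and 0.994).

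In 5 genes (0.0614%) the guide effect itself differed between constructs, each time lower with the tRNA-Ile-UAU construct. ROR2, a receptor tyrosine kinase for WNT5A, had 67.4, 42.4, 65.7 and 62.9 CPM with the eGFP guide and 37.3, 97.9, 8.56 and 19.2 CPM with the tRNA-Ile-GAU guide. Its lowest values were the pair with both the tRNA-Ile-GAU guide and the tRNA-Ile-UAU construct, and the difference of effects was -2.59 ± 0.45 (edgeR adjusted p = 3.56e-04). TGM2 stood at 463, 482, 606 and 606 CPM against 814, 738, 581 and 629.6 CPM, so it was higher with the guide only beside the control construct, where the change was 0.72 ± 0.12 against -0.01 ± 0.12 beside the other. The difference was -0.72 ± 0.17 (edgeR adjusted p = 0.0447). CD55, which shields cells from complement (-0.87 ± 0.18), LSM4, a subunit of the Lsm ring in RNA decay and splicing (-0.80 ± 0.15), and PDGFC, a platelet-derived growth factor (-1.44 ± 0.33), were the other 3. DESeq2 called none of the 5, and leaving out 1 library gave between 0 and 10 such genes. None was called without replicate 2 of the eGFP guide with the tRNA-Ile-UAU construct, 1 was called without either replicate of the eGFP guide with the control construct, and 3, 10 and 9 without replicate 1 or 2 of the tRNA-Ile-GAU guide with the control construct and replicate 2 with the tRNA-Ile-UAU construct.

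**Figure D4:**
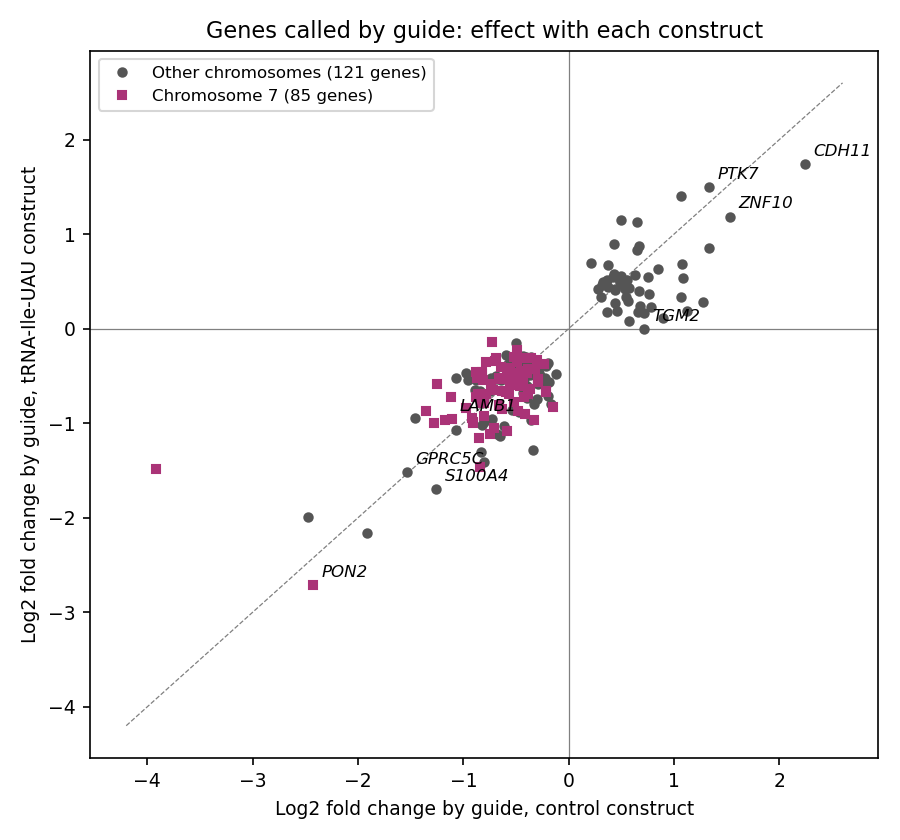
Log2 fold change by guide with the control construct (x axis) and with the tRNA-Ile-UAU construct (y axis) for the 206 called genes, squares for the 85 on chromosome 7; the dashed line marks equal effects. All fallen genes lie in the lower left quadrant, and TGM2, at 0.72 and -0.01, sits on the horizontal axis.

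Total RNA from the same 4 conditions gave 161 called genes of 11720 (1.37%), 35 up (0.299%) and 126 down (1.08%). Of the 51 genes with risen footprints all were tested there, 46 were higher, and 13 passed in the same direction. Of the 152 tested genes with fallen footprints, 134 were lower in total RNA and 40 passed. No gene passed in opposite directions. The number called in total RNA moved with single libraries, from 36 to 52 without any 1 of the eGFP libraries or of the tRNA-Ile-GAU libraries with the control construct, to 379 and 405 without replicate 1 or 2 of the tRNA-Ile-GAU guide with the tRNA-Ile-UAU construct. The fallen genes on chromosome 7 had a median of -0.59 in footprints and -0.41 in total RNA, and those elsewhere -0.53 and -0.19. The risen genes had medians of 0.51 and 0.30. All these genes were selected by their footprints, which can enlarge the footprint medians beside those of total RNA. The gap between the assays is therefore not a finding. Over all tested genes of chromosome 7, without that selection, the medians were -0.39 in footprints and -0.36 in total RNA. In bulk libraries, fewer cells of a kind and less RNA per cell cannot be told apart.

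CDH11, PTK7 and ZNF10 rose in total RNA too, by 1.78 ± 0.18, 1.84 ± 0.22 and 1.10 ± 0.10. LAMB1 fell there with -1.01 ± 0.08, close to its footprint value. S100A4 had -1.01 ± 0.31 in total RNA and did not pass (edgeR adjusted p = 0.185), with 168, 149, 93.0 and 172 CPM for the eGFP guide and 79.1, 57.5, 117 and 32.8 CPM for the tRNA-Ile-GAU guide. CRIP2, ADAM15, RPL24, RPL13A and AGRN were lower in footprints and had positive total RNA values, from 0.12 in AGRN to 0.36 in RPL13A, none of which passed. In each, replicate 1 of the tRNA-Ile-GAU guide with the tRNA-Ile-UAU construct was the highest total RNA library. In the other tRNA-Ile-GAU libraries ADAM15 was at 35.3, 27.2 and 22.7 CPM and AGRN at 109, 73.7 and 69.5 CPM. CRIP2 was at 6.63, 5.63 and 2.84 CPM there. The eGFP means were 31.3, 91.7 and 6.07 CPM. RPL24 and RPL13A stood at 153, 143 and 121 and at 437, 390 and 336 CPM, against eGFP means of 137 and 336 CPM. GPRC5C had -0.62 ± 0.28 in total RNA against -1.53 in footprints. Translational efficiency, the footprint effect minus the total RNA effect in 1 edgeR fit of all 16 libraries, passed for 0 of 8012 genes, with 413 at an unadjusted p under 0.05 and 0 passing in DESeq2 as well (226 at an unadjusted p under 0.05). The median standard error of this difference was 0.241 on the log2 scale. For the same genes it was 0.189 for the footprint effect and 0.117 for the total RNA effect. At this precision the count of 0 does not show that efficiency was unchanged. The biological coefficient of variation was 13.5% in total RNA and 6.93% in footprints, each over the genes tested in that assay.

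**Figure D5:**
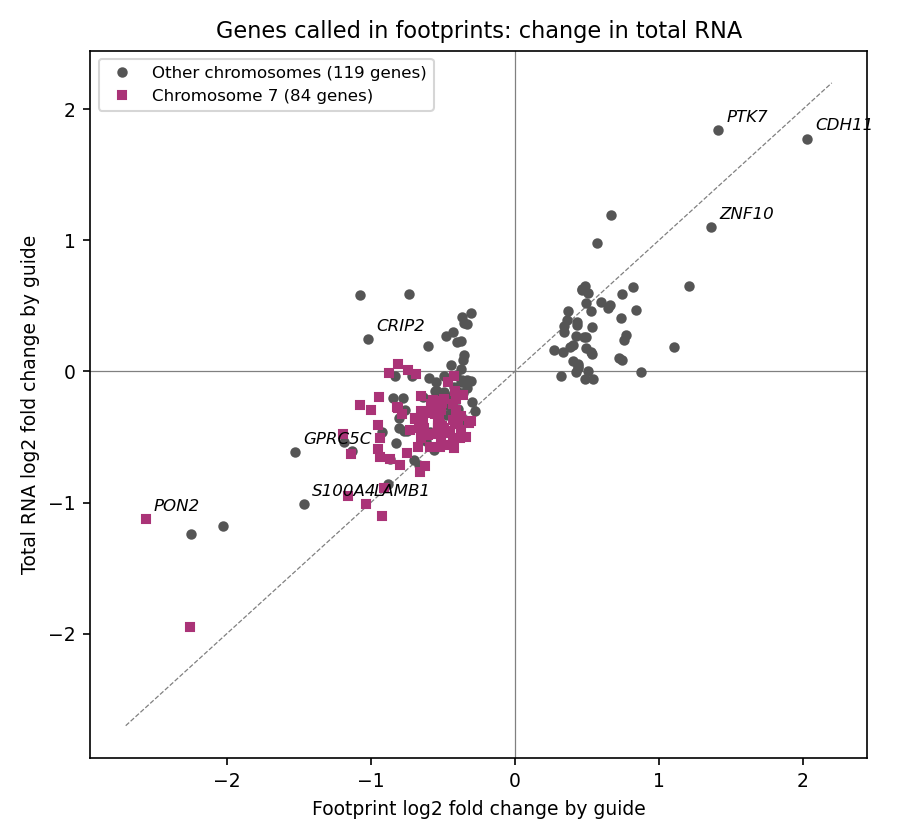
Footprint log2 fold change by guide (x axis) and total RNA log2 fold change (y axis) of the 203 called genes tested in both assays, squares for the 84 on chromosome 7; the dashed line marks equal changes. CDH11, PTK7 and ZNF10 lie high in both assays, and CRIP2 lies at -1.02 in footprints and 0.24 in total RNA. The total RNA value of CRIP2 includes 1 high tRNA-Ile-GAU library, at 13.2 CPM.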

How the data were processed

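What the authors deposited are raw counts of reads on each gene symbol. The submitters' processing notes name cutadapt 1.17, STAR 2.5.2a, HTSeq and the build hg38. Their settings, the gene annotation and any use of strand are not given in the sources used here, so overlapping and antisense genes are uncertain. A gene missing from a footprint file was given 0, which left 13804 genes, and the 5 HTSeq summary lines were used only for depth. Alignments to several places were 97.0 to 98.8% of the footprint total and reads on genes 0.843 to 2.25%, which limits precision to the 358340 to 938909 counts per footprint library.

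Samples were grouped by the assay, CRISPRi target and construct in their titles. Low genes were removed by group with filterByExpr (at least 10 counts, 15 in total), libraries were scaled by TMM, and the quasi-likelihood test of edgeR 4.0.16 (R 4.3.3) was run with terms for construct and guide and 5 residual degrees of freedom. Effects within a construct and the interaction came from group means. Translational efficiency was tested in 1 fit of both assays. The alternatives were DESeq2 1.42.0, upper quartile scaling, other filters, no construct term, a replicate block, thinned libraries, chromosome 7 left out and each library left out. Each edgeR test was checked on simulated data. Positions came from RefSeq tables of GRCh38.p14, in which 23758 of 26485 symbols are current, 1592 are older names and 1135 were not matched.

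The comparison, the members and the 40 gene lists, which were written from general knowledge, were chosen with earlier results of these data known. Named genes were, among called genes without overlapping groups, the 14 largest that rose, the 10 largest that fell outside chromosome 7 and the 8 largest that fell on it, then the 4 with the lowest p in each direction above a mean of 100 CPM, and every called list member. IARS, IARS2, SLC7A5, SLC3A2 and PRKX were named whatever their values, and PRKX was not among the genes tested. A few genes that these rules or lists would name are not reported here and do not count in the lists. A planned test of isoleucine content against footprints was not run because no protein sequences were used here.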

Additional observations from a re-analysis of the deposited data

Results flagged for a closer look

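In 144 sets of 4 libraries (each named gene and the counts on genes, for each guide) 1 library was sought that lay far from the other 3, and 4 were found. Chance gives about 1 in 20, or 7.2 of 144. Counts on genes were lowest, at 358340, in replicate 1 of the eGFP guide with the tRNA-Ile-UAU construct, against 583338 to 607919 in the other eGFP footprint libraries. COL13A1 was at 482 CPM in replicate 2 of the eGFP guide with the control construct, against 377 to 379 CPM in the others. With the tRNA-Ile-GAU guide, AGRN was at 213 CPM in replicate 2 with the control construct (others 235 to 239 CPM) and IGFBP1 at 50.6 CPM in replicate 1 with the control construct (others 39.2 to 40.7 CPM).

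The guide effect differed between constructs by edgeR's interaction test in 5 genes, as effect with the tRNA-Ile-UAU construct minus effect with the control construct on the log2 scale. The differences were -0.87 ± 0.18 in CD55 (adjusted p = 0.0132), -0.80 ± 0.15 in LSM4 (adjusted p = 0.0023), -1.44 ± 0.33 in PDGFC (adjusted p = 0.0447), -2.59 ± 0.45 in ROR2 (adjusted p = 3.56e-04) and -0.72 ± 0.17 in TGM2 (adjusted p = 0.0447). LSM4 varied between the libraries of 1 group, with 3345, 4222, 2108 and 3573 CPM in the tRNA-Ile-GAU libraries. ROR2 did too, with 37.3, 97.9, 8.56 and 19.2 CPM.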

How the results depend on the processing

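No value changed sign among the called genes named. Of the 67 named genes that were called, 29 kept their call in every alternative that gave them a value, among them CDH11, PTK7, ZNF10, TXNIP, TARS, LAMB1, LAMB3, LAMA5, S100A4, ITGB4, GPRC5C, CYR61, CTGF, PON2, CTSC and CTSD. The other 38 lost it in at least 1 alternative, 24 of 59 with DESeq2 and 29 of 64 in thinned libraries, and 9 to 23 of 67 for each library left out. The footprint call count of 206 moved to 82 with DESeq2 (3000 genes had no adjusted p), 96 in thinned libraries and 97 without chromosome 7, and to 131 to 193 with 1 library left out. The total RNA count of 161 moved to 549 with no filter, 24 without chromosome 7, and 36 to 405 with 1 library left out. Within the control construct 90 moved to 37 in thinned libraries and to 18 to 46 with 1 library left out. Within the tRNA-Ile-UAU construct 73 moved to 45 when its 4 libraries were fitted alone, 35 in thinned libraries and 19 to 74 with 1 left out. The interaction count of 5 moved to 0 with DESeq2 (76 at an unadjusted p under 0.05), 8 with the replicate block, and 0 to 10 with 1 library left out. Translational efficiency stayed at 0 in the alternatives run. Leaving out a library leaves a group of 1, which is assumed to vary like the others, and widens the genes tested to 8548 to 8639. Leaving out libraries within a construct and for the interaction was chosen after the data were seen. The cause of these moves was not tested.

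Replicate numbers are shared across groups, but libraries of the same number deviated together with correlations of -0.04 to 0.06 in footprints and -0.42 to 0.36 in total RNA, so the numbers were not taken as pairs. With a replicate block in the model, 206 footprint genes were called, 199 of them the same, and 142 in total RNA, 109 and 106 within the constructs and 0 for translational efficiency. The isoleucine content alternatives were not run. The footprint depth, 358340 to 938909 counts, leaves low genes such as PON2 and IFITM2 on few counts.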

Other observations

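Some of the called genes that no list held are given here. They were picked one by one after their values were seen, form no fixed group, and their uncalled relatives were not counted. SLIT2, the secreted ligand of Robo receptors, had 47.1, 39.0, 57.2 and 34.9 CPM with the eGFP guide and 86.7, 58.7, 56.7 and 73.5 CPM with the tRNA-Ile-GAU guide and rose by 0.66 ± 0.19. The semaphorins SEMA3A (-0.56 ± 0.13) and SEMA3C (-0.66 ± 0.11), both on chromosome 7, fell, as did the semaphorin receptors PLXNA1 (-0.36 ± 0.10) and PLXND1 (-0.55 ± 0.15), the adhesion molecule L1CAM (-0.69 ± 0.12) and the ephrin receptor EPHA2 (-0.33 ± 0.08), none of the last 4 on chromosome 7. FYN, a Src-family kinase, rose by 1.11 ± 0.33, from 10.1, 11.9, 2.86 and 21.0 CPM to 31.3, 24.5, 33.2 and 14.4 CPM. The groups overlapped in both SLIT2 and FYN, and FYN was low. The transcription factors ETS1 and HIF1A rose by 0.48 ± 0.11 and 0.27 ± 0.08, and EXOSC3, a cap subunit of the RNA exosome, by 0.74 ± 0.18. The tetraspanins CD9 (-0.29 ± 0.08) and CD151 (-0.31 ± 0.08), which sit beside integrins in the membrane, and the glypican GPC1 (-0.76 ± 0.21) fell. On chromosome 7, POP7, a subunit of the RNase P that trims tRNA precursors, fell with -0.81 ± 0.20, the hepatocyte growth factor receptor MET with -0.42 ± 0.10 and the cytoskeletal actin ACTB, whose pseudogenes can share reads, with -0.36 ± 0.07. All of these values are from edgeR's quasi-likelihood test. Whether these calls held in the alternatives or with a library left out was not examined.

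Of the 8143 genes tested in footprints, 22 had 0 counts in all 8 total RNA libraries, and 3 of these were called: CATSPER4 with 468 footprint counts over the 8 libraries, MTPN with 795 and SLC22A2 with 1879. The total RNA files list these genes at 0, and the gene annotation used for each assay is not given in the sources used here, so these zeros do not show that the RNA was absent.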
